A study of Homo sapiens with 6 samples.

Results

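The mitochondrial genome is a small circular DNA, and both of its strands are transcribed into long RNAs that span many genes. In human cells tRNA genes lie between most of the mRNAs and rRNAs, and the long RNAs are cut at the tRNAs to release each product. The mRNAs encode core subunits of the respiratory chain and of ATP synthase, the rRNAs build the mitochondrial ribosome, and most of the mRNAs and both rRNAs receive a tail of adenines, which completes the stop codon of several mRNAs.

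All 37 genes whose name starts with MT- were taken, of 58825 genes in the deposited gene table. They were 13 mRNAs, 2 rRNAs and 22 tRNAs, and all 37 passed the filter on low values, 1 FPKM or more in 3 or more of the libraries. FPKM is a fragment count scaled by transcript length and library size, so it allows genes of different length to be compared, with limits for genes shorter than a sequenced fragment. The heavy strand unit, read from the plus strand of the annotation, holds 12 of the mRNAs, both rRNAs and 14 tRNAs. The light strand unit holds MT-ND6 and 8 tRNAs. Whether the counting used strand is not given in the sources used here, so the values of light strand genes may include fragments of RNA from the opposite strand, and every comparison by strand has this limit.

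The libraries came from PC9, an established human lung adenocarcinoma line. Per the labels, 3 libraries overexpressed FOXM1 as the allele rs3742076_G and 3 as the allele rs3742076_A, here called G and A libraries, and all 6 were treated with the EGFR inhibitor gefitinib at 100 nM for 24 h. The series compares the alleles in connection with gefitinib resistance. Every library thus carried added FOXM1 and the drug, and no library without either was analysed here. The labels do not say whether replicates were separate cultures or whether the lines were clones or pools, so p-values measure only how these libraries vary, and that variation may be technical.

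Between 12700 and 12858 genes reached 1 FPKM in G libraries, against 12451 to 12548 in A libraries. The summed FPKM of all genes was 253706 to 255269 in G libraries and 270219 to 277596 in A libraries. The main fit did not rescale these sums. FOXM1 itself was at 14.6, 14.3 and 13.965 FPKM in G libraries, against 25.5, 10.5 and 10.1 FPKM in A libraries, so A replicate 1 stood apart from the other A libraries in the overexpressed gene. Of 6 epithelial markers all were expressed, up to 1579 FPKM for KRT19. In any library the leukocyte markers summed to at most 1.51 FPKM and the endothelial markers to at most 0.673 FPKM. The fibroblast markers summed to at most 2.26 FPKM, with COL1A1 at 1.63 to 2.25 FPKM. The epithelial markers summed to 2613 to 2865 FPKM in G libraries and 2789 to 3341 FPKM in A libraries, and their part in the results was not tested. Over the 12787 genes tested with limma on log2(FPKM + 1), 14 were called at an adjusted p under 0.05 (4 higher and 10 lower in G, or 7 and 8 with equal sums per library), and the median log2 change, G minus A, was 0.02.

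The ends of the mRNAs are shown here since the mRNAs differed in how far their level changed and also in how their reading frame ends. Sequences are from GENCODE release 29 on GRCh38, where all 37 genes had the deposited position, strand and length. Each line gives the last 15 bases of a gene, 5′ to 3′, with the encoded stop codon or the part of it that is encoded in capitals.
MT-ND1, chrMT:4248-4262, plus strand: tccccctcaaaccTA
MT-ND2, chrMT:5497-5511, plus strand: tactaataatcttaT
MT-CO1, chrMT:7431-7445, plus strand: tacataaaatctAGA
MT-CO2, chrMT:8255-8269, plus strand: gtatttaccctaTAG
MT-ATP8, chrMT:8558-8572, plus strand: cccccacaatccTAG
MT-ATP6, chrMT:9193-9207, plus strand: cacgacaacacaTAA
MT-CO3, chrMT:9976-9990, plus strand: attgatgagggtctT
MT-ND3, chrMT:10390-10404, plus strand: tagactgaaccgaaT
MT-ND4L, chrMT:10752-10766, plus strand: ctactccaatgcTAA
MT-ND4, chrMT:12123-12137, plus strand: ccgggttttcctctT
MT-ND5, chrMT:14134-14148, plus strand: ctcctaatcacaTAA
MT-ND6, chrMT:14149-14163, minus strand: gctcgggggaatAGG
MT-CYB, chrMT:15873-15887, plus strand: tactcaaatgggccT
In 6 genes, MT-ND1, MT-ND2, MT-CO3, MT-ND3, MT-ND4 and MT-CYB, the annotated length leaves 1 or 2 bases beyond whole codons, and adenylation supplies the rest of the stop codon. The other 7 end in a complete codon. For MT-ATP6 the last A of that codon is also the first base of MT-CO3.

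The tRNA genes that stood out by level are a cluster of 4 neighbours on the light strand, shown whole with the anticodon in capitals and with T for U.
MT-TA, chrMT:5587-5655, minus strand: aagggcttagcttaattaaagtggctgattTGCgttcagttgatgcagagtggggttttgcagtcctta
MT-TN, chrMT:5657-5729, minus strand: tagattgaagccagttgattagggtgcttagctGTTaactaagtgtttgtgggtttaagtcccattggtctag
MT-TC, chrMT:5761-5826, minus strand: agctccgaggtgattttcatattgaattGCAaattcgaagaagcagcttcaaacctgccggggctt
MT-TY, chrMT:5826-5891, minus strand: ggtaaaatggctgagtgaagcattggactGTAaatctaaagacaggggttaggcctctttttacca
They carry alanine, asparagine, cysteine and tyrosine, and together they fill most of the stretch between MT-TW and MT-CO1.

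The mitochondrial RNAs took a smaller share of the RNA in G libraries. By summed FPKM, which gives short genes much weight, the difference lay in mRNAs and tRNA genes rather than in rRNAs. The 13 mRNAs summed to 14.0%, 12.6% and 13.3% of all FPKM in the G libraries, against 16.5%, 16.2% and 16.2% in the A libraries. The 22 tRNAs made up 3.26%, 2.98% and 3.02% in G libraries, against 3.497%, 3.57% and 3.63% in A libraries. The 2 rRNAs made up 2.47%, 2.15% and 2.29% in G libraries, against 2.24%, 2.33% and 2.303% in A libraries, so the groups overlapped for rRNA and were apart for the other classes. Most of the tRNA sum came from MT-TC, MT-TN, MT-TY and MT-TA, whose values may include fragments of the opposite strand. Weighted by transcript length, which follows the fragments sequenced, the mitochondrial share was 4.93% ± 0.24 in G libraries and 6.16% ± 0.11 in A libraries (SD, n = 3). In that measure the mean shares in G and A libraries were 3.85% and 4.99% for mRNAs and 1.01% and 1.09% for rRNAs. For tRNA genes they were only 0.0647% and 0.0804%. In RNA from whole cultures, fewer cells of a kind and less RNA per cell cannot be told apart.

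**Figure D1:**
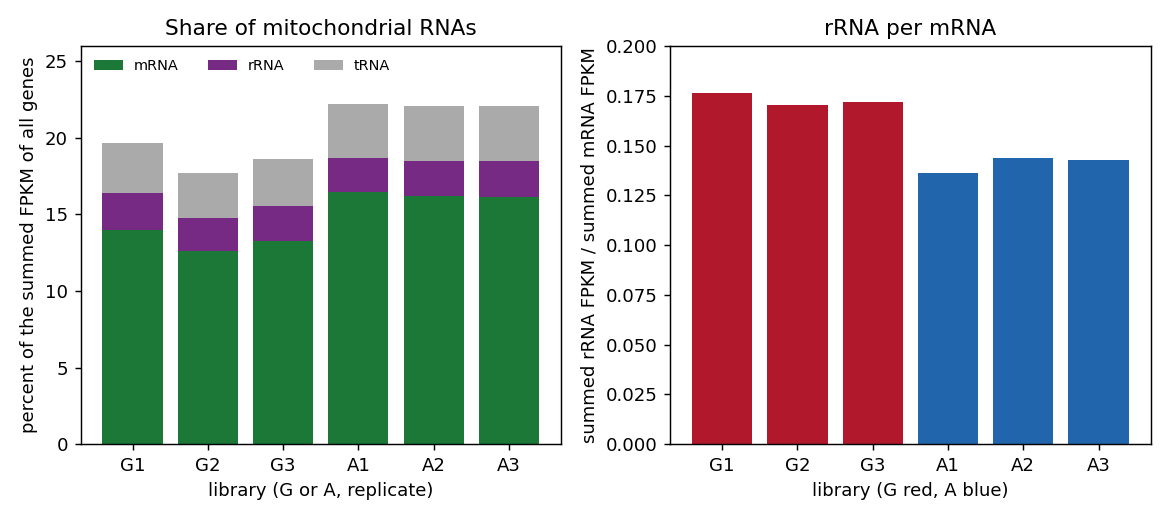
The left panel stacks the percent of the summed FPKM of all genes held by mitochondrial mRNAs, rRNAs and tRNAs in each library, G replicates before A replicates. The right panel gives the summed rRNA FPKM divided by the summed mRNA FPKM, with every G library (0.1703 to 0.177) above every A library (0.136 to 0.144).

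Among all 37 members, 32 had a log2 change below 0, where 44.9% of all tested genes did. All 13 mRNAs were among them, although with quantile normalization MT-ND5 and MT-ND4L turned to 0.0411 and 0.0326 and MT-CO1 and MT-ND4 were at 0. That method gives each rank the same value in every library. An RNA that keeps its rank thus gets a change of 0 whatever its level, and changes of the most abundant RNAs are limited. All values with quantile normalization given below have this limit. In 22 members every G library was below every A library, against 9.57% of all tested genes, and 0 members were apart in the other direction, against 15.4%. limma called 4 members, all mRNAs and all lower in G, against 0.0782% of tested genes called lower, and 0 were called higher, against 0.0313%. The calls rest on small margins. Of the 4, limma called 0 with quantile normalization, without a variance trend or without a filter on low values. With limma, 0 of the 4 stayed below the threshold without G replicate 3, without A replicate 2 or without A replicate 3. Without A replicate 1 the members called were MT-CYB and MT-ND3, without G replicate 2 MT-CO3, and without G replicate 1 MT-CYB, MT-ND2 and MT-TQ. The median log2 change was -0.51 for the mRNAs, -0.07 for the rRNAs and -0.27 for the tRNAs. By strand it was -0.27 for the 28 genes of the heavy strand unit and -0.40 for the 9 of the light strand unit.

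**Figure D2:**
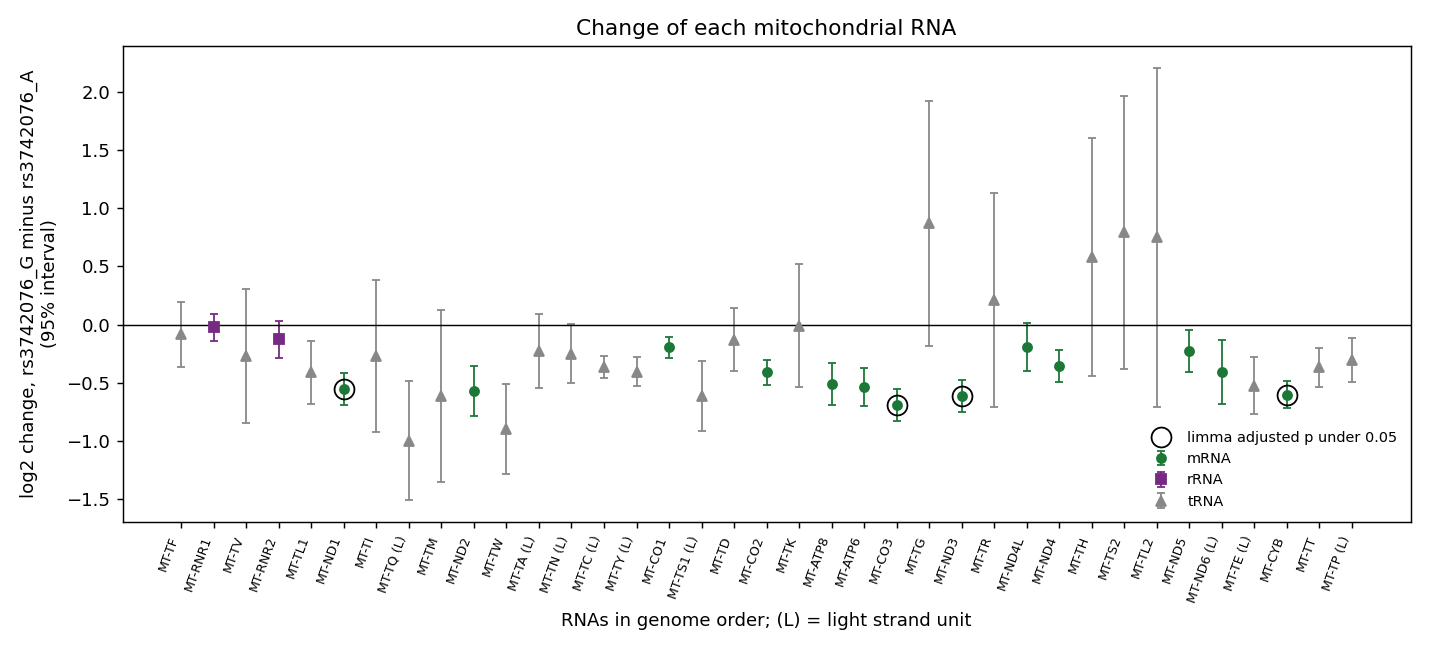
Points give the log2 change of each RNA, G minus A on log2(FPKM + 1), in the order of the genes on the mitochondrial genome, with 95% intervals from limma on 3 libraries per group. The 13 mRNAs lie at -0.69 to -0.19, the rRNAs at -0.12 and -0.02, and 5 tRNA genes lie above 0 with intervals that cross it.

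Of the mitochondrial subunits of complex IV, the complex that passes electrons to oxygen, MT-CO3 changed most. It was at 2368, 2138 and 2429.9 FPKM in the G libraries, against 3825, 3677 and 3697 FPKM in the A libraries. The groups were far apart, and MT-CO3 fell by 0.69 on the log2 scale (SE 0.0574, limma adjusted p = 0.0241). With quantile normalization its log2 change was -0.15 and the call was lost (limma adjusted p = 0.143). MT-CO2, which receives electrons from cytochrome c, was at 4122, 3804 and 4133 FPKM in G libraries, against 5349, 5299.5 and 5354 FPKM in A libraries. Its groups did not overlap either, but the call was missed (log2 change -0.41, limma adjusted p = 0.0566). MT-CO1, the catalytic subunit and the most abundant of the mRNAs, was at 5962, 6251 and 6265 FPKM in G libraries, against 7142, 7064 and 6939.5 FPKM in A libraries. Its log2 change was only -0.19 (95% interval -0.29 to -0.10, limma adjusted p = 0.159), although all G libraries were lower. The 95% interval of MT-CO1 lay above that of MT-CO3 (-0.83 to -0.55), and the difference between these changes was not tested.

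MT-CYB encodes cytochrome b, the only subunit of complex III made in mitochondria. It was at 1269, 1191 and 1187 FPKM in G libraries, against 1777, 1909.8 and 1845 FPKM in A libraries. MT-CYB fell by 0.60 on the log2 scale (SE 0.048, limma adjusted p = 0.0241), and the gap between the groups was wider than the range within each. With quantile normalization the log2 changes of MT-CYB and MT-ND3 were -0.28 and -0.39 and neither was called (limma adjusted p = 0.117 and 0.0546).

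Complex I takes electrons from NADH, and 7 of its subunits are mitochondrial. MT-ND1 was at 3412, 3098 and 3227 FPKM in G libraries, against 4585, 5036 and 4641 FPKM in A libraries. It fell by 0.55 on the log2 scale (limma adjusted p = 0.046). The call of MT-ND1 was lost under each other scaling, with limma adjusted p = 0.0569 for equal sums, 0.0561 for equal nuclear sums, 0.0582 for median-ratio factors and 0.084 for quantile normalization, where its log2 change was -0.26. MT-ND3 was at 990.2, 913 and 1015 FPKM in G libraries, against 1417, 1528 and 1519.5 FPKM in A libraries, and fell by 0.61 (limma adjusted p = 0.0377). For both of these mRNAs every G library lay below every A library. MT-ND2 showed a change of like size without passing the test. It was at 2027, 1594 and 1721 FPKM in G libraries, against 2667, 2633 and 2601 FPKM in A libraries (log2 change -0.57, limma adjusted p = 0.146). The spread of MT-ND2 was wider in G (SD 223 FPKM) than in A (SD 33.3 FPKM), with G replicate 1 the highest of its group, and without that library its log2 change was -0.67 and the call was made (limma adjusted p = 0.049).

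MT-ND4L and MT-ND4 are read from a shared mRNA and overlap by 7 bases, so fragments at their border can be split between them. MT-ND4 was at 5366, 4746 and 4929 FPKM in G libraries, against 6173, 6572 and 6478 FPKM in A libraries (log2 change -0.36, limma adjusted p = 0.146). MT-ND4L was at 4943, 3975 and 4398 FPKM in G libraries, against 5316, 4809 and 5036 FPKM in A libraries. It was the mRNA whose groups overlapped, with a log2 change of -0.19 (95% interval -0.40 to 0.02). MT-ND5 was at 1112, 932 and 975 FPKM in G libraries, against 1191, 1206 and 1119 FPKM in A libraries. The groups of MT-ND5 were apart by a narrow margin, with a log2 change of -0.22 (limma adjusted p = 0.231).

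MT-ND6 is the mRNA of the light strand unit. It was at 808, 651 and 702 FPKM in G libraries, against 839.6, 1071 and 966 FPKM in A libraries. The highest G library came close to the lowest A library, and the log2 change was -0.41 (limma adjusted p = 0.197), within the range of the heavy strand mRNAs.

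The ATP synthase subunits MT-ATP8 and MT-ATP6 also share an mRNA, with 46 bases in common. MT-ATP8 was at 2497, 2093 and 2287 FPKM in G libraries, against 3202, 3134 and 3452 FPKM in A libraries (log2 change -0.51, limma adjusted p = 0.127). MT-ATP6 was at 719.7, 613 and 657 FPKM in G libraries, against 997, 959.6 and 924 FPKM in A libraries (log2 change -0.54, limma adjusted p = 0.0885). Both were lower in every G library, and the FPKM of MT-ATP6 was below that of MT-ATP8 in all 6 libraries. Fragments of MT-ATP6 can also be placed on MTATP6P1, a copy on chromosome 1 with 98.5% identity and a mean of 694 FPKM. The place of MT-ATP6 in the order of levels is thus uncertain. MT-ATP8 (207 bases) and MT-ND4L (297 bases) are shorter than the 300 bp insert that the labels give, so their FPKM also depends on fragments that reach into neighbours, and their place among longer mRNAs is uncertain.

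**Figure D3:**
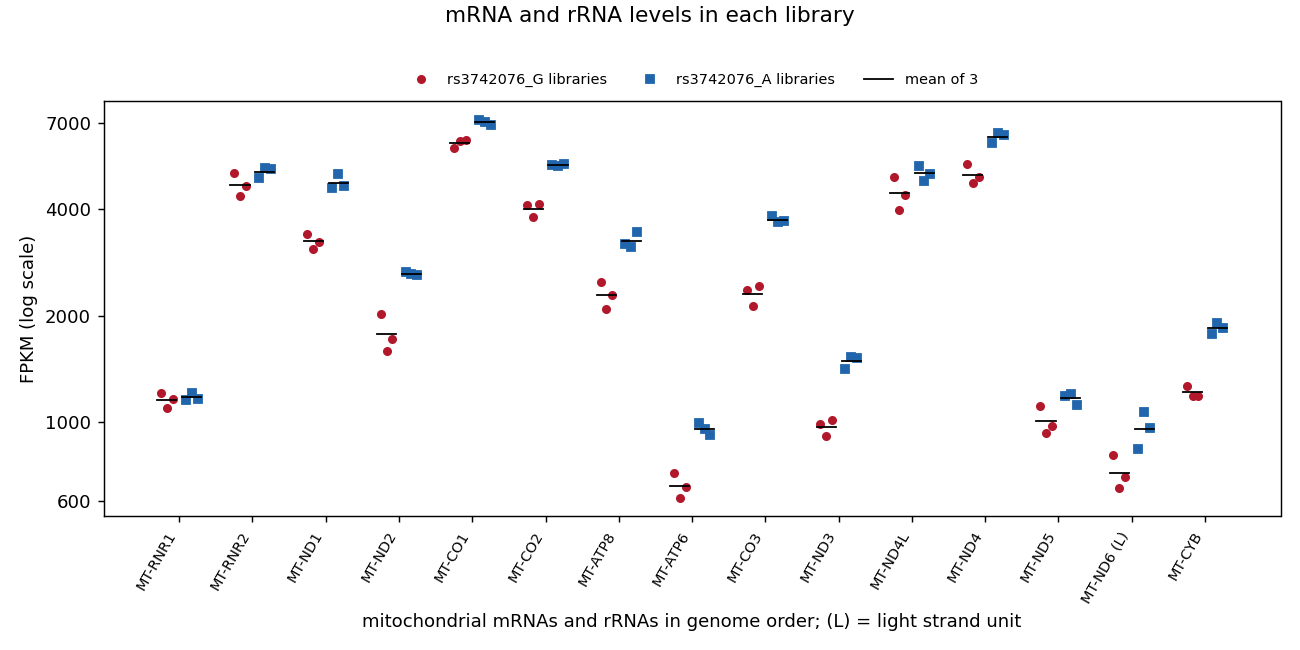
Each point is the FPKM of a library on a log axis for the 13 mRNAs and 2 rRNAs in genome order, G libraries left of A libraries, with the mean of 3 as a line. For 12 mRNAs every G point is below every A point, while the points of both rRNAs and of MT-ND4L overlap.

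By mean level over the 6 libraries the order was MT-CO1, MT-ND4, MT-RNR2, MT-ND4L, MT-CO2, MT-ND1, MT-CO3, MT-ATP8, MT-ND2, MT-CYB, MT-ND3, MT-RNR1, MT-ND5, MT-ND6 and MT-ATP6. MT-ND4L exceeded MT-CO2 in 3 of 6 libraries and MT-ND3 exceeded MT-RNR1 in 3 of 6, so these neighbours did not keep an order. The means spanned 6604 FPKM for MT-CO1 to 812 FPKM for MT-ATP6, and position along the heavy strand unit gave no steady fall in level.

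The relative make-up of the mRNA pool differed as well. MT-CO1 held 16.75%, 19.5% and 18.5% of the summed mRNA FPKM in G libraries, against 16.1%, 15.7% and 15.6% in A libraries. MT-ND4L and MT-ND5 also held a larger share in every G library. MT-CO3 held 6.65%, 6.68% and 7.16% in G libraries, against 8.60%, 8.19% and 8.295% in A libraries, and MT-ND1, MT-ND2, MT-ATP6, MT-ND3 and MT-CYB held less in every G library too. These shares are not independent of each other, since they sum to a whole in each library.

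The kind of stop codon, looked at after the values were seen, was set beside these changes. The 6 mRNAs with a partial stop codon had a median log2 change of -0.59, and the 7 with a complete one had a median of -0.41. All 4 called mRNAs were in the partial group, and 5 of its 6 members were at -0.5 or below, against 2 of the 7 others and 1.61% of all tested genes. MT-ND4, with a partial stop codon, was at -0.36, above MT-ATP6 and MT-ATP8, which end in complete codons. The counts at -0.5 depend on the scaling. With equal sums per library MT-CO3 and MT-ND3 stayed below it, at -0.584 and -0.505. MT-CYB, MT-ND2 and MT-ND1 were then at -0.49, -0.46 and -0.44, and MT-ATP6 and MT-ATP8 at -0.43 and -0.40. The genes share libraries and precursor RNAs, so this is a description of 13 genes with no test.

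**Figure D4:**
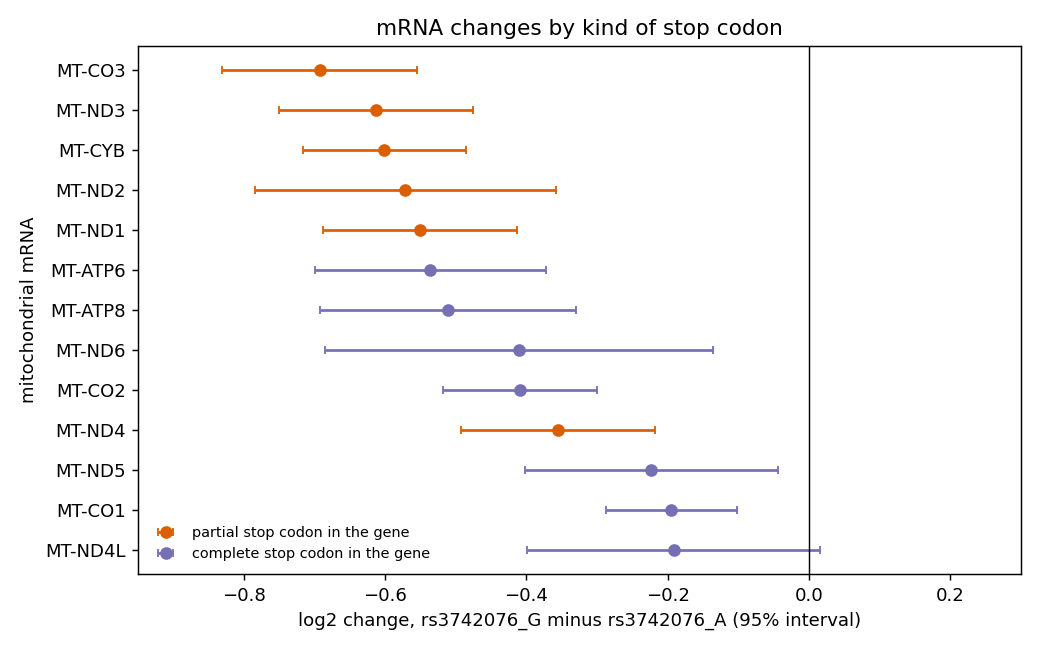
The 13 mRNAs are ordered by log2 change, G minus A, with 95% intervals, and coloured by whether the gene encodes a whole stop codon. The lowest 5 values, -0.69 to -0.55, are all of genes with a partial stop codon, and MT-ND4 is the sixth such gene at -0.36.

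The rRNAs did not separate the groups. MT-RNR2, the large subunit rRNA, was at 5077, 4352 and 4665 FPKM in G libraries, against 4896, 5247 and 5193 FPKM in A libraries. Its log2 change was -0.12 (95% interval -0.28 to 0.03, limma adjusted p = 0.381). MT-RNR1, the small subunit rRNA, was at 1207, 1099 and 1168 FPKM in G libraries, against 1160.1, 1209 and 1161 FPKM in A libraries. The log2 change of MT-RNR1 was -0.02 (95% interval -0.14 to 0.09, limma adjusted p = 0.823), and its sign turned to 0.08 with equal sums per library. G replicate 1 was the highest G library for both rRNAs. MT-RNR2 was above MT-RNR1 in level in all 6 libraries, although they lie next to each other on the same strand, apart by MT-TV.

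MT-RNR2 and MT-ND1 are neighbours on the heavy strand unit, separated by MT-TL1. The ratio of MT-RNR2 to MT-ND1 FPKM was 1.49, 1.405 and 1.45 in G libraries, against 1.07, 1.04 and 1.12 in A libraries. It was higher in 3 of 3 G libraries, by 0.43 on the log2 scale, with p = 0.1 in a two-sided exact permutation test, the smallest value 3 against 3 libraries can give. Of 3 ratios compared, this was the one whose groups were apart (p = 0.2 after Benjamini-Hochberg adjustment over the 3 exact tests). Libraries were made from poly(A) RNA, so each of the 3 ratios also depends on how well each RNA was captured by its tail, which was not tested.

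To compare strands, MT-ND6 was set against MT-CYB, its neighbour across MT-TE on the other strand. With the strand setting not given, fragments of either strand cannot be told apart in these values. The ratio was 0.637, 0.546 and 0.592 in G libraries, against 0.472, 0.561 and 0.524 in A libraries. The groups overlapped, with a log2 difference of 0.19 and an exact two-sided permutation p = 0.2. To compare position, MT-CYB, the last mRNA of the heavy strand unit, was set against MT-ND1, its earliest mRNA. That ratio was 0.372, 0.384 and 0.368 in G libraries, against 0.388, 0.379 and 0.397 in A libraries. The groups overlapped, with a log2 difference of -0.05 and an exact two-sided permutation p = 0.2, in a design that cannot go below 0.1.

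The tRNA genes spanned from 1.57 FPKM in the lowest library of MT-TQ to 3313 FPKM in the highest of MT-TC. They are 59 to 75 bases long, far shorter than the insert, so a fragment over a tRNA gene also covers its neighbours and these values need not be mature tRNA. Libraries were made from poly(A) RNA, and mature tRNAs have no long tail of adenines.

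The 4 neighbours shown above had the highest values listed for tRNA genes, and these may include fragments of the opposite strand. MT-TC was at 2525, 2501 and 2491 FPKM in G libraries, against 3108, 3313 and 3233 FPKM in A libraries. MT-TY was at 1551, 1718 and 1689 FPKM in G libraries, against 2136, 2254 and 2161 FPKM in A libraries. For both, every G library was lower, with log2 changes of -0.36 and -0.40 (limma adjusted p = 0.0566 and 0.0971). MT-TN was at 2262, 1733 and 1837 FPKM in G libraries, against 2167, 2319 and 2412 FPKM in A libraries. MT-TA was at 979.9, 706 and 756 FPKM in G libraries, against 873, 940.2 and 1021 FPKM in A libraries. In MT-TN and MT-TA the groups overlapped through G replicate 1, and the log2 changes were -0.25 and -0.23 (limma adjusted p = 0.291 and 0.415). MT-TW, which carries tryptophan and lies 7 bases from MT-TA on the opposite strand, was at 4.66, 3.09 and 3.07 FPKM in G libraries, against 8.81, 6.95 and 6.77 FPKM in A libraries.

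The next tRNA genes by level were MT-TL1 and MT-TP. MT-TL1, the leucine tRNA between MT-RNR2 and MT-ND1, was at 352, 272 and 301 FPKM in G libraries, against 365, 424 and 438 FPKM in A libraries. MT-TP, the proline tRNA, was at 246, 216 and 200.3 FPKM in G libraries, against 268, 278 and 271 FPKM in A libraries. Both were lower in every G library, with log2 changes of -0.41 and -0.30 (limma adjusted p = 0.195 and 0.187). Of the 22 tRNA genes, 10 were apart and lower in G and 0 apart and higher, against 9.57% and 15.4% of all tested genes. limma called 0 of them, while 9 were lower at an unadjusted p under 0.05, against 6.82% of all tested genes. The groups were also apart in MT-TQ (glutamine), MT-TW, MT-TM (methionine), MT-TS1 (serine), MT-TE (glutamate) and MT-TT (threonine). MT-TQ had the most negative fitted value of all 37 members, at -0.995 (95% interval -1.51 to -0.48, limma adjusted p = 0.165), from 3.57, 1.92 and 1.57 FPKM in G libraries, against 5.91, 5.33 and 5.21 FPKM in A libraries.

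MT-TE was at 78.5, 74.0 and 73.4 FPKM in G libraries, against 95.7, 106 and 126 FPKM in A libraries. MT-TT was at 62.8, 59.6 and 69.4 FPKM in G libraries, against 79.6, 86.7 and 81.3 FPKM in A libraries. MT-TS1 was at 7.82, 9.31 and 7.86 FPKM in G libraries, against 10.99, 14.1 and 14.9 FPKM in A libraries. All G libraries were lower in these, with log2 changes of -0.52, -0.37 and -0.61. MT-TM was at 10.5, 6.10 and 10.2 FPKM in G libraries, against 21.6, 11.3 and 10.8 FPKM in A libraries, apart by a narrow margin and with A replicate 1 far above the rest.

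In the other tRNA genes the groups overlapped. MT-TF, the phenylalanine tRNA at the start of the heavy strand unit, was at 53.2, 57.3 and 66.4 FPKM in G libraries, against 55.5, 61.3 and 70.7 FPKM in A libraries. MT-TV (valine), between the rRNAs, was at 15.2, 23.8 and 16.7 FPKM in G libraries, against 23.4, 16.3 and 28.6 FPKM in A libraries. Neither ordered the groups. MT-TI (isoleucine) was at 16.96, 15.0 and 13.3 FPKM in G libraries, against 25.8, 11.6 and 20.3 FPKM in A libraries. MT-TD (aspartate) was at 15.2, 16.6 and 12.5 FPKM in G libraries, against 17.6, 15.5 and 15.4 FPKM in A libraries. MT-TK (lysine) was at 11.5, 11.5 and 8.94 FPKM in G libraries, against 13.1, 7.29 and 12.4 FPKM in A libraries. The 95% intervals of these 5 genes all include 0. MT-TQ and MT-TI overlap by 3 bases and MT-TC and MT-TY by 1, so fragments there can be split between them.

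By annotated strand, the 8 tRNA genes of the light strand unit all had a log2 change below 0. Of these, 6 were apart and lower in G, and the median was -0.38. Of all tested genes 44.9% were below 0 and 9.57% were apart and lower. Of the 14 tRNA genes of the heavy strand unit 9 were below 0 and 4 were apart and lower, with a median of -0.10. The 5 that were above 0 are MT-TG (glycine) and MT-TR (arginine), which flank MT-ND3, and MT-TH (histidine), MT-TS2 (serine) and MT-TL2 (leucine), which follow each other between MT-ND4 and MT-ND5.

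In those 5 genes the A libraries did not resemble each other. MT-TL2 was at 21.5, 22.2 and 32.0 FPKM in G libraries, against 37.8, 5.69 and 12.9 FPKM in A libraries. MT-TG was at 27.8, 27.8 and 37.7 FPKM in G libraries, against 35.1, 11.5 and 10.7 FPKM in A libraries. MT-TR was at 19.6, 19.9 and 19.1 FPKM in G libraries, against 29.2, 8.73 and 17.9 FPKM in A libraries. In MT-TL2 and MT-TR, A replicate 1 was above every G library, in MT-TG it was within their range, and the other A libraries were lower in all of these. MT-TH was at 26, 26.2 and 30.6 FPKM in G libraries, against 35.2, 9.30 and 17.6 FPKM in A libraries. MT-TS2 was at 25.2, 28.4 and 34.7 FPKM in G libraries, against 36.3, 8.10 and 14.5 FPKM in A libraries. These had the same order, with A replicate 1 highest of all. Summed, the 5 genes came to 120.1, 124 and 154 FPKM in G libraries, against 174, 43.3 and 73.6 FPKM in A libraries. limma called 0 of the 5 (log2 changes 0.21 to 0.87). Their values turn on which A library is used. Without A replicate 1 the log2 changes were 0.597 to 1.42, and without A replicate 2 they were -0.22 to 0.63, with 0 of the 5 called by limma in either. Of the mRNAs next to them, MT-CO3, MT-ND3, MT-ND4 and MT-ND5 were lower in every G library with A replicate 1 included. In MT-ND4L, which follows MT-TR, the groups overlapped. A replicate 1 is also the library that stood apart in FOXM1, and the part of that in these values was not tested.

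**Figure D5:**
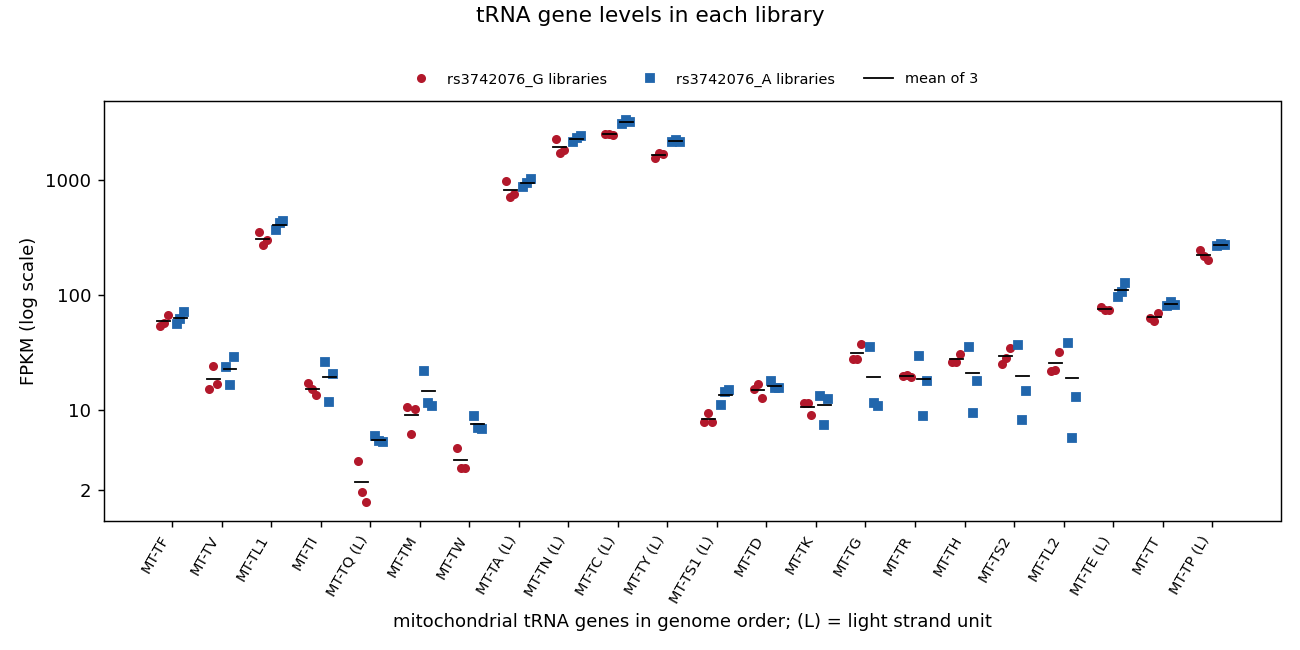
Each point is the FPKM of a library on a log axis for the 22 tRNA genes in genome order, G libraries left of A libraries, with the mean of 3 as a line. The 4 light strand genes MT-TA, MT-TN, MT-TC and MT-TY lie at 706 to 3313 FPKM, and in MT-TG, MT-TR, MT-TH, MT-TS2 and MT-TL2 A replicate 1, the leftmost blue square, lies well above the other A libraries.

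Nuclear chromosomes carry copies of mitochondrial sequence, and fragments from either can be placed on the other. A block on chromosome 1 between 629062 and 634922 (GRCh38) holds copies of MT-ND1 (in part), MT-ND2, MT-CO1, MT-CO2, MT-ATP6 and MT-CO3 (in part), which differed from the mitochondrial genes at 3 to 21 aligned bases, an identity of 98.0% to 99.1%. Over 8 copies with a mean of 1 FPKM or more, all had a log2 change below 0 and 5 were apart and lower in G, where 44.9% and 9.57% of all tested genes were. MTATP6P1, the copy of MT-ATP6, was at 583, 537 and 561 FPKM in G libraries, against 824, 848 and 810.0 FPKM in A libraries. It was close in level to MT-ATP6 and was called lower as well (log2 change -0.56, limma adjusted p = 0.0241). MTND2P28 was at 177, 318 and 344 FPKM in G libraries, against 423, 465 and 441 FPKM in A libraries. MTCO1P12 was at 84.7, 300.3 and 289.6 FPKM in G libraries, against 274, 356 and 328 FPKM in A libraries. G replicate 1 was the lowest library for both MTND2P28 and MTCO1P12, while among the G libraries it was the highest for MT-ND2 and the lowest for MT-CO1. With 7 of these copies added to their mitochondrial gene (MTRNR2L12 was not matched to one), a setting chosen after seeing the data, 8 members were called lower in place of 4, namely MT-ND1, MT-ND2, MT-CO2, MT-CO3, MT-ND3, MT-ATP6, MT-CYB and MT-TC.

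The nuclear genes listed for the mitochondrial genome and its RNA did not pass the test. The list of 54 covers transcription, RNA processing and decay, and copying of the genome. It also holds proteases such as CLPP and nuclear regulators such as ESRRA, so its counts are not those of RNA factors alone. Of the 54, 51 were tested and limma called 0. In 6 the groups were apart and lower in G and in 3 apart and higher, where 9.57% and 15.4% of all tested genes were. Their median log2 change was -0.04, against 0.02 over all tested genes. CLPP was at 9.19, 10.5 and 9.66 FPKM in G libraries, against 11.6, 12.1 and 11.7 FPKM in A libraries. The smallest p-values were those of CLPP, a protease of the mitochondrial matrix (log2 change -0.25, limma adjusted p = 0.186), FASTKD5, needed for mitochondrial mRNAs that have no tRNA at their ends (-0.25, limma adjusted p = 0.195), and ESRRA, a nuclear receptor of mitochondrial gene programmes (-0.16, limma adjusted p = 0.251).

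Of 38 nuclear genes for respiratory chain and ATP synthase subunits, all tested, limma called 0. In 31 the log2 change was below 0, in 11 the groups were apart and lower in G, in 0 they were apart and higher, and the median was -0.11. Over all tested genes these shares were 44.9% below 0, 9.57% apart and lower and 15.4% apart and higher. At an unadjusted p under 0.05 in either direction, 10 of the 38 passed and 6 of the 51 genes above, where 17.3% of all tested genes did. The smallest p-values belonged to complex IV. COX5B was at 96.4, 98.1 and 100.3 FPKM in G libraries, against 118, 118 and 135 FPKM in A libraries (log2 change -0.32, limma adjusted p = 0.159). COX8A and COX6A1 had log2 changes of -0.26 and -0.22 (limma adjusted p = 0.187 and 0.198). The mRNAs of the mitochondrial genome had a median of -0.51, further from 0 than the nuclear subunits, and this difference between lists was not tested.

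Genes of replication-dependent histones, whose mRNAs as a class lack a long tail of adenines, were measured beside the members. Whether the transcripts measured here lacked a tail is not known. Their level thus does not show how much RNA without a tail was captured. HIST1H4C was at 0.344 FPKM or less in every library, while HIST1H2BK was at 65.6 to 85.4 FPKM. Of 12 listed, 7 were tested, 0 were called, 6 had a log2 change below 0 and 4 were apart and lower in G, against 9.57% of all tested genes, with a median of -0.18. Their summed level was 148 to 164 FPKM in G libraries and 172 to 181 FPKM in A libraries, and their part in the results was not tested. The non-mitochondrial genes whose log2 profile over the 6 libraries was most like the mean of the 13 mRNAs were CCND1 (cyclin D1, Pearson r = 0.995), VPS33B (a vesicle-sorting protein, r = 0.995) and GID8 (a subunit of a ubiquitin ligase, r = 0.993), as a description over libraries that fall into the study's groups.

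In the authors' deposited table, 6 of the 37 genes had a q-value under 0.05 and were lower in G, as did 0.051% of all 58825 genes there, expressed or not. These were MT-CO3 (q = 0.00026), MT-CYB (q = 0.0028), MT-ND3 (q = 0.009), MT-ND1 (q = 0.014), MT-ND2 (q = 0.019) and MT-ATP6 (q = 0.034), and all had a ratio of G to A below 1 in the authors' deposited table. The first 4 are those called by limma here.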

How the data were processed

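The authors deposited FPKM values per gene and per transcript for 6 libraries, and their own comparison: the fold ratio of G over A and its log2, with p-value and q-value columns, per the file headers. Per the submitters' processing notes the tools were cutadapt 1.9, HISAT2 2.0.4 and StringTie 1.3.4d. The notes name a mouse build, but the genes are human and lie at GRCh38 positions. Libraries were made from poly(A)-selected RNA with dUTP in the second strand, per the labels. The strand setting of the counting is not given in the sources used here. The depth behind each value is not given in the files, so no counting interval is printed.

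FPKM values were taken as log2(FPKM + 1), which understates changes of low genes. Genes at 1 FPKM or more in at least 3 libraries entered limma 3.58.1 with an intensity trend (R 4.3.3), with Benjamini-Hochberg adjustment over all 12787 and a threshold of 0.05. The fit was tested on simulated data with independent noise for each gene, which does not cover genes that vary together. Ratios of 2 genes were compared with exact permutation tests (scipy 1.17.1). Copies were aligned with Biopython 1.88. Members, gene lists and alternatives were chosen with earlier results of these data known. All 37 members are described, with the listed genes of smallest p, the 3 most abundant nuclear copies and the 3 genes of most similar profile.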

Additional observations from a re-analysis of the deposited data

How the results depend on the processing

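The alternatives changed the pseudocount, filter, scaling, variance trend, replicate block and set of libraries. Against 14 genes and 4 mitochondrial RNAs called, the counts were 1 and 0 without a filter on low values, 6 and 0 with quantile normalization, 4 and 0 without a variance trend, 0 and 0 with the replicate block, and 18 and 8 with 7 nuclear copies added. The members called were 3 with equal sums, equal nuclear sums or median-ratio factors, and 6 with a pseudocount of 0.1 or 0.01 or a filter of 5 FPKM. With 1 library left out they were 5 to 20 genes and 0 to 3 members, and 0 members were called higher in any of these fits. Without A replicates 1, 2 and 3 the members called numbered 2, 0 and 0, and without G replicates 1, 2 and 3 they numbered 3, 1 and 0. MT-CYB was called in 9 of 17 alternatives. The median log2 change of the mRNAs, -0.51, was -0.40 when library sums were made equal (median of all genes 0.11), and -0.16 with quantile normalization, which gives the top ranks of every library the same values. It was -0.57 to -0.45 with 1 library left out.

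Signs turned in RNAs that the main settings did not call, MT-TC among them, which was called in 4 alternatives. With equal sums the log2 change was 0.0846 for MT-RNR1, 0.0251 for MT-TF and 0.0918 for MT-TK, and with equal sums of nuclear genes 0.0223 for MT-RNR1 and 0.0349 for MT-TK. With quantile normalization it was 0.22 for MT-RNR1, 0.0634 for MT-RNR2, 0.18 for MT-TC, 0.11 for MT-TN, 0.0153 for MT-TA, 0.0411 for MT-ND5 and 0.0326 for MT-ND4L. With 1 library left out, MT-RNR1 ranged from -0.0546 to 0.0133, MT-TF from -0.17 to 0.0093, MT-TK from -0.25 to 0.13 and MT-TR from -0.22 to 0.60. The causes were not tested, and the values with quantile normalization have the limit of fixed ranks given above. The pairwise ratios kept their sign, at 0.40 to 0.45 for MT-RNR2 to MT-ND1, 0.12 to 0.25 for MT-ND6 to MT-CYB and -0.0694 to -0.0335 for MT-CYB to MT-ND1 with 1 library left out.

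Replicate numbers share no stated batch. Deviations of same-numbered libraries correlated at 0.073, 0.015 and 0.040 over the tested genes. Libraries of different number correlated at -0.056 to 0.016. The same-numbered values were positive but small, and the numbers are not taken to pair the libraries. With the replicate block the ratios of MT-ND6 to MT-CYB, MT-RNR2 to MT-ND1 and MT-CYB to MT-ND1 gave exact permutation p = 0.5, 0.25 and 0.5. Depth per library is not given in the files, and 3 libraries a group limit every test.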
